A study of Mus musculus with 30 samples.

Results

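The genes described here are Npnt, Col1a1, Col1a2, Col3a1, Col4a1, Col4a2, Fn1, Sparc, Nid1 and Lamc1, 10 genes that encode proteins of the extracellular matrix and of the basement membrane. Their RNA was measured in mouse primary visual cortex, area V1, on postnatal days 14, 28 and 60 (P14, P28 and P60). Every probe set whose array annotation gave 1 of these symbols and no other was taken, which made 18 of the 36899 probe sets and 10 of the 15964 genes that had a probe set of their own. The genes were chosen by their function and by their measured signals across the 3 ages, with earlier results of these data in view. Their differences between ages are therefore given as a description, without p-values for single genes.

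The mice had standard rearing in every group, no treatment is named, and V1 was dissected out. Strain, genotype, sex and the number of animals per litter are not given in the sources used here. P14 and P28 had 3 litters each, and P60 had 4. Each litter was run on all of 3 Affymetrix array types, called chips A, B and C, which gave 30 arrays. Values are MAS5 signals, intensities on a linear scale that can be compared between arrays for 1 probe set but not between probe sets. Chip A holds 15 of the 18 probe sets, chip B holds 2 and chip C holds 1.

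Basement membranes are thin sheets of matrix that, in the cortex, surround the blood vessels and lie under the meninges at the pial surface. A network of type IV collagen and a network of laminins, tied together by nidogen, form the sheet, and fibronectin and the collagen-binding protein SPARC are found with it, above all in growing tissue. Nephronectin is a matrix protein that binds the integrin alpha8 beta1 and is best known from the developing mouse kidney. Type I and type III collagens make fibrils outside the sheet, and in the brain they belong mainly to the meninges and the walls of larger vessels.

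Of the 9 markers of cortical excitatory neurons on the arrays, such as Slc17a7 and Camk2a, all 9 were bright enough to be tested and none had a mean below background at all 3 ages. The arrays were uneven. On P14 litter 1 the 3' to 5' signal ratio of Gapdh was 9.57 to 12.2 over the 3 chips, against 0.741 to 1.32 on the other 27 arrays. The mean correlation of P60 litters 1 and 4 with the other arrays was 0.910 and 0.923 on chip A, and 0.884 and 0.883 on chip B, where the remaining arrays, P14 litter 1 aside, ranged from 0.936 to 0.952 and from 0.923 to 0.934. On chip C P60 litter 2 was lowest at 0.860. Counts are therefore also given without P14 litter 1 and for a restricted set that leaves out, besides it, those P60 arrays. The litters are taken to be separate, and the p-values for other genes measure the spread between these samples only.

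Most of the genes had their highest signals at P14 and lower ones by P28. Npnt stood out, with a mean signal 5.04 times as high at P14 as at P60 on its chip A probe set. Col1a1, Col4a1, Col4a2, Fn1 and Sparc followed, with P14 means 1.36 to 2.25 times those at P60 on their brighter chip A probe sets. For these 5 genes and Npnt every P14 litter lay above every P28 and every P60 litter on these chip A probe sets. Of all tested probe sets, 8.41% had every P14 litter above every P28 litter, and 6.42% above every P60 litter. On the chip B probe sets of Npnt and Sparc and the chip C one of Col4a2, P14 was not above P60 in every litter. Col3a1 and Nid1 were at or near background at every age, and the means of the 2 Col1a2 probe sets were ordered in opposite ways.

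Of the 18 probe sets, 12 from 8 genes were tested, that is, they were above the chip type's median signal on at least 3 arrays. From P14 to P28, 11 of the 12 had a lower mean, with a median log2 difference of -0.70, where the median over all 20724 tested probe sets was 0.03. From P28 to P60, 8 of the 12 were lower, with a median of -0.21 against -0.01 over all. From P14 to P60, 11 were lower, with a median of -0.84 against 0.06. These counts say nothing on their own, since the genes were chosen with these values known, and since 1 of the probe sets entered only through its P14 arrays. In limma's fit over all probe sets, with Benjamini-Hochberg adjustment and a threshold of 0.05, 0 of the 12 were called between P14 and P28, where 0.00483% of all were, and 0 between P28 and P60, where 0% were. At an unadjusted p under 0.05 there were 8 and 3 of the 12, beside 7.87% and 5.43% of all, and nothing is read from these counts. Between P14 and P60, 2 of the 12 were called, both lower at P60, where 0.396% of all were called, 0.29% lower and 0.106% higher. Without P14 litter 1 these 3 counts were 1, 0 and 4 (0.125%, 0.00483% and 2.4% of all), in the restricted set 3, 0 and 4 (1%, 0% and 2.13%), and without P14 litter 2 the P14 to P60 count was 0 of 12 and 0% of all. Without P60 litter 3 that count stayed at 2, and it was 1 in each of the other 7 fits that dropped 1 litter. In bulk tissue, fewer cells of a type and less RNA per cell cannot be told apart.

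**Figure D1:**
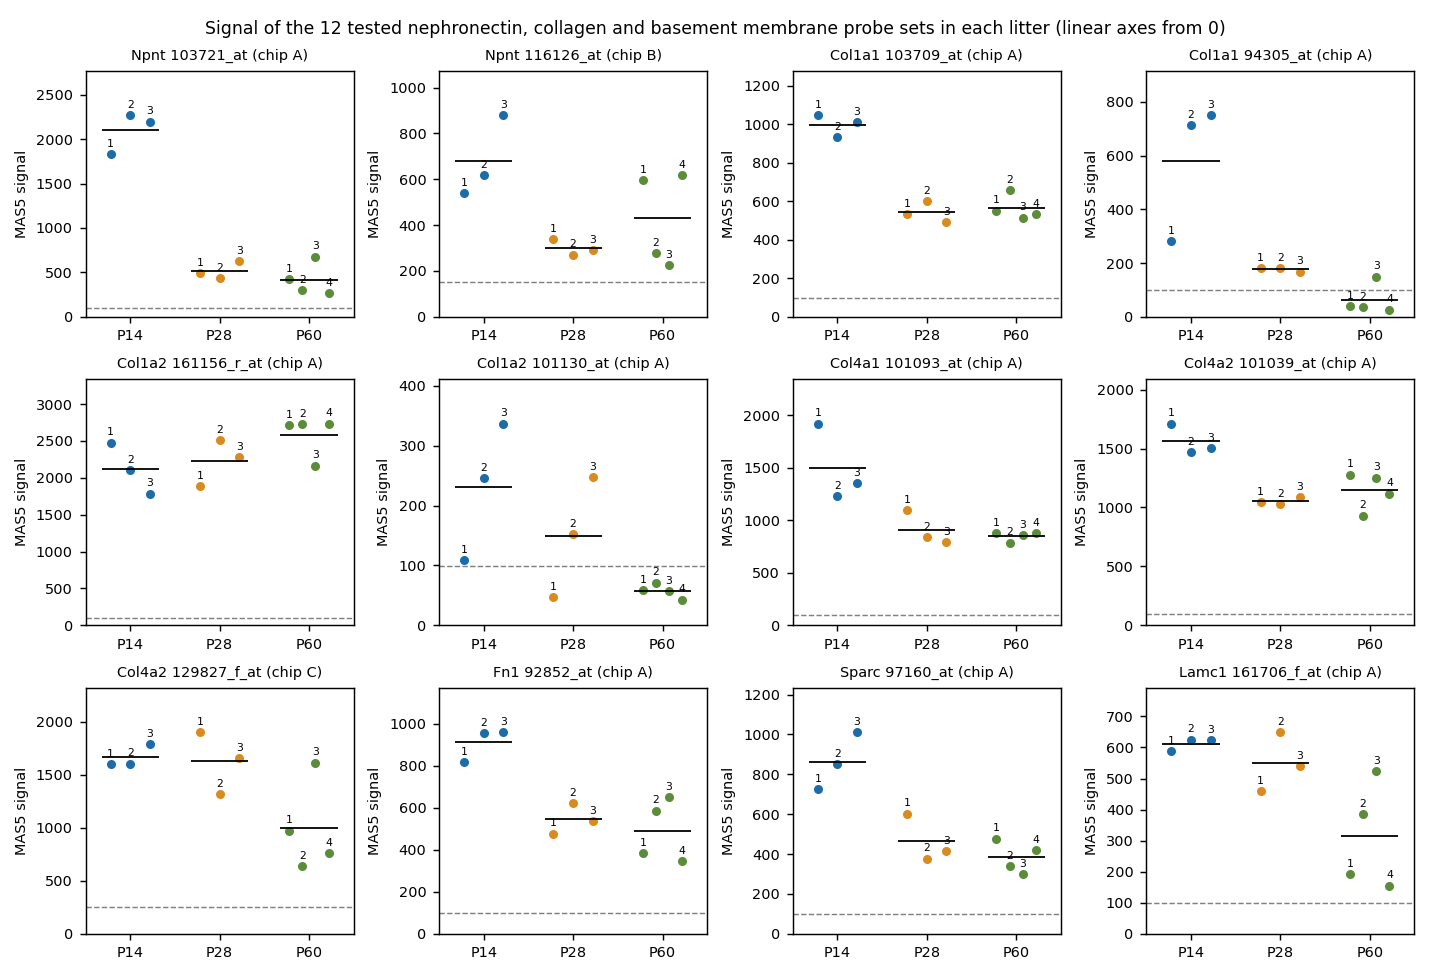
MAS5 signal (linear axis from 0) of each of the 12 tested probe sets in every litter, by age, with the litter number above each point, the age mean as a black line and the background level of the chip type as a dashed grey line. The P14 litters of Npnt on chip A lie between 1829 and 2272 and all later litters at or below 677, whereas the r-type probe set of Col1a2 stays between 1786 and 2736 at all ages.

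Npnt was measured by a probe set on chip A and another on chip B. On chip A (103721_at) the P14 litters had signals of 1829, 2272 and 2198, the P28 litters 495, 432 and 628, and the P60 litters 421, 303, 677 and 265. Means were 2100 ± 237 (SD, n = 3), 518 ± 99.8 (n = 3) and 416 ± 186 (n = 4). All P14 litters were thus far above all later ones, while the P28 and P60 litters overlapped. The log2 difference was -1.95 with a standard error of 0.30 from P14 to P28, -0.36 with 0.28 from P28 to P60, and -2.31 with 0.28 from P14 to P60, where it was called and fell. With 1 litter dropped at a time, the P14 to P60 difference kept its call in 9 of 10 fits, and not without P14 litter 2, where it was -2.25. These fits reuse the values that were known when the gene was chosen, so the calls are a description and no separate support. P14 litter 1, with its high 3' to 5' ratio, was the lowest P14 litter here, and without it the P14 to P60 difference was -2.40.

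On chip B (116126_at) the P14 litters of Npnt had 538, 617 and 880, the P28 litters 339, 271 and 290, and the P60 litters 596, 277, 225 and 620. P14 was again above P28 in every litter, but P60 litters 1 and 4, the arrays that stood apart on this chip, were at P14 levels and P60 litters 2 and 3 at P28 levels. The log2 difference from P14 to P60 was -0.68 with a standard error of 0.32 with all litters and -1.37 with 0.24 in the restricted set. From P28 to P60 it went from 0.34 to -0.21 when those arrays were left out. The part of array quality in these differences was not tested.

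The promoter of Npnt is shown because this gene had the largest difference of those with a bright signal at every age. RefSeq lists 2 starts for it, and the window at the upstream one, from 250 bases before to 50 after the start, lies at chr3:132950242-132950541 on the minus strand of GRCm38.p6. It is printed 5′ to 3′ with the matches to the GC box GGGCGG, on either strand, in capitals.
Npnt: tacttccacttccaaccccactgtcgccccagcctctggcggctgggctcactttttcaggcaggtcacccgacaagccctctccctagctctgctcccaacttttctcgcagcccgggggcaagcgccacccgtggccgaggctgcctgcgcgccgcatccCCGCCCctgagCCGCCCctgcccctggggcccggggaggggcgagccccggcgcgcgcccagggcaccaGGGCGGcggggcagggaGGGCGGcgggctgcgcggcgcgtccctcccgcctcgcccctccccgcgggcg
G and C made up 76.7% of this window. It held 4 matches to the GC box, 2 on each strand, and none to CCAAT or TATAAA. Of 32851 such windows over all genes, 35.7% held a GC box, 37.4% CCAAT and 13.6% TATAAA. The second window of Npnt held none of the 3 motifs.

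Col1a1 and Col1a2 encode the chains of type I collagen, the main fibrillar collagen of the meninges and vessel walls, and Col3a1 that of type III collagen, which is found in the same fibrils. The bright probe set of Col1a1 (103709_at) had signals of 1049, 934 and 1010 at P14, 532, 601 and 493 at P28, and 551, 659, 515 and 535 at P60. The P14 litters were apart from all others, and the P28 and P60 litters overlapped. Its log2 difference was -0.84 with a standard error of 0.19 from P14 to P28, 0.06 with 0.17 from P28 to P60, and -0.78 with 0.17 from P14 to P60.

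The second Col1a1 probe set (94305_at) was dimmer, with 280, 714 and 752 at P14, 182, 180 and 168 at P28, and 40.6, 35.2, 149 and 26.6 at P60. Every P28 litter lay above every P60 litter, as was so for 1 of the 12 tested probe sets and for 4.46% of all. It is the other call of the P14 to P60 comparison, at -2.64 with a standard error of 0.42. It was tested only because its 3 P14 arrays were above the chip median, so it had to differ, and 3 of its 4 P60 signals lay below the background level of 98.4, the 95th percentile of the Bacillus control probe sets on chip A. Its size therefore depends on the added constant, being -1.72 with 4 times that constant. The call was kept without P14 litter 1 (-3.07) and without P60 litter 3 (-2.99) and lost in the other 8 fits that left out 1 litter, in which the difference lay between -2.41 and -2.64. P14 litter 1 was by far the lowest P14 litter on it, and the part of its 3' to 5' imbalance in this was not tested.

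The Col1a2 probe sets differed from each other. The r-type probe set (161156_r_at), whose probes were chosen under reduced rules, had 2476, 2106 and 1786 at P14, 1891, 2512 and 2280 at P28, and 2716, 2723, 2165 and 2736 at P60. The ages overlapped, and the log2 difference from P14 to P60 was 0.29 with a standard error of 0.19. The other (101130_at) had 108, 246 and 337 at P14, 46.4, 153 and 247 at P28, and 59.1, 71.2, 57.4 and 42.9 at P60. All P14 litters lay above all P60 litters there, all 4 P60 signals were below background, and the log2 difference was -1.39 with a standard error of 0.46. P14 litter 1 was again the lowest of its age on the second probe set and the highest on the first.

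Col3a1 had 3 probe sets, and none passed the filter. On the brightest (98331_at) the signals were 114, 149 and 126 at P14, 105, 112 and 74.5 at P28, and 75, 142, 81.2 and 70.7 at P60. The P14 litters lay above the P28 litters, but 4 of the 10 arrays were below background. The other 2 probe sets (161984_f_at and 102990_at) were below it on all 10 arrays, with signals from 4.2 to 59.1, so no level of Col3a1 can be given from them.

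**Figure D2:**
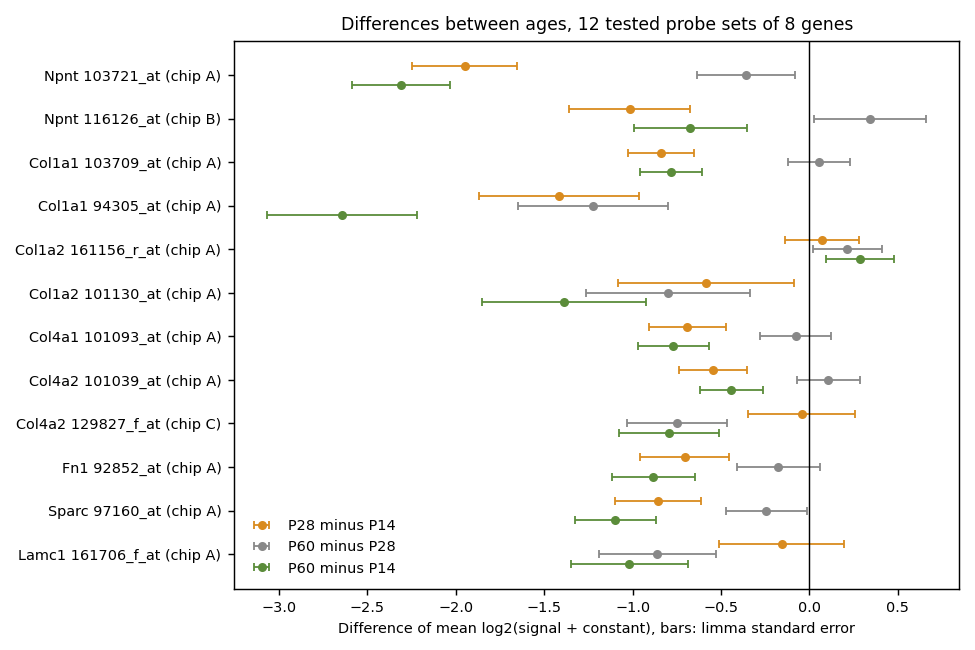
Difference between ages in mean log2 of signal plus a constant, for each of the 12 tested probe sets, with bars for limma's standard error and colours for the 3 comparisons. For Npnt and for the first probe set of Col1a1 the P28 minus P14 and P60 minus P14 points lie close together, whereas for Lamc1 and for Col4a2 on chip C the P28 minus P14 point is near 0, at -0.16 and -0.04.

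Col4a1 and Col4a2 encode the 2 chains of the type IV collagen that forms the network of vascular basement membranes. Col4a1 (101093_at) had signals of 1919, 1227 and 1354 at P14, 1094, 835 and 791 at P28, and 873, 787, 860 and 875 at P60. The P14 litters were above all others, with P14 litter 1 the highest. Mean signals were 1500 ± 368 at P14 (SD, n = 3) and 849 ± 41.7 at P60 (SD, n = 4). The log2 difference from P14 to P60 was -0.77 with a standard error of 0.20, and -0.58 with 0.17 without P14 litter 1. On chip A Col4a2 (101039_at) had 1713, 1468 and 1502 at P14, 1043, 1030 and 1091 at P28, and 1278, 930, 1254 and 1117 at P60. Its P14 litters were likewise above all others, and the log2 difference from P14 to P28 was -0.55 with a standard error of 0.19, beside -0.69 with 0.22 for Col4a1. From P14 to P60 it was -0.44 with 0.18 for Col4a2, beside the -0.77 of Col4a1.

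The f-type Col4a2 probe set on chip C (129827_f_at), a type that can be shared within a sequence family, gave another course. It had 1600, 1607 and 1787 at P14, 1904, 1320 and 1660 at P28, and 974, 641, 1615 and 765 at P60. P14 and P28 overlapped, and 3 of the 4 P60 litters lay below all earlier ones. P60 litter 3 stayed at the earlier level, and the lowest value was that of P60 litter 2, whose chip C array stood apart. The log2 difference from P28 to P60 was -0.75 with a standard error of 0.28, and -0.58 with 0.26 in the restricted set.

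Col4a1 and Col4a2 are shown with their promoters because they lie head to head. Their annotated starts in RefSeq on GRCm38.p6 are 21 bases apart. Each start lies inside the other gene, so the annotated genes overlap there by 22 bases. Their windows, chr8:11312777-11313076 on the minus strand for Col4a1 and chr8:11312555-11312854 on the plus strand for Col4a2, share 78 bases. Each is printed 5′ to 3′ on its own strand with the shared bases in capitals.
Col4a1: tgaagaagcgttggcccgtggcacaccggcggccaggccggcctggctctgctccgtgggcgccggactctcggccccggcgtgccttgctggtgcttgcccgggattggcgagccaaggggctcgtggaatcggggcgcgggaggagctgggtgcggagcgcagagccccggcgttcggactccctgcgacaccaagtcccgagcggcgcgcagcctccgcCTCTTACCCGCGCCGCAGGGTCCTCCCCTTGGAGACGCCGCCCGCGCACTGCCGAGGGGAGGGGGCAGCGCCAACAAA
Col4a2: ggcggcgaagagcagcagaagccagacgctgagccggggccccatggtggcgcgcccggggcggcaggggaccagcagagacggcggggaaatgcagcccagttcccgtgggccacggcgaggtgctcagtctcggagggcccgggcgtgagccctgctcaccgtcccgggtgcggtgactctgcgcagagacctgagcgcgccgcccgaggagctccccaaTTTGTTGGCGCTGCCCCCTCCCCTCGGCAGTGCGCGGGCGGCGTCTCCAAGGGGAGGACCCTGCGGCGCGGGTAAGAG
The shared bases held 1 GC box and no full match to CCAAT or TATAAA, and each window held 1 CCAAT that is not wholly within them. G and C made up 74.0% of the Col4a1 window and 73.7% of the Col4a2 window. Windows were at hand for 7 of the 10 genes.

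Lamc1 encodes the gamma1 chain found in most laminins, and Nid1 encodes nidogen 1, which links laminin to type IV collagen. The brighter Lamc1 probe set (161706_f_at), of the f type, had 588, 625 and 623 at P14, 459, 650 and 541 at P28, and 193, 386, 523 and 155 at P60. P14 and P28 overlapped, every P60 litter lay below every P14 litter, and the lowest were P60 litters 1 and 4, whose arrays stood apart. Its log2 difference from P14 to P60 was -1.02 with a standard error of 0.33, and -0.44 with 0.21 in the restricted set. The other Lamc1 probe set (102404_at) was below background on 9 of 10 arrays, with signals from 6.47 to 101.

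Nid1 had 1 probe set (100120_at), with signals of 42.6, 24.8 and 46.6 at P14, 30, 32.3 and 30.4 at P28, and 126, 11.2, 32.4 and 57.3 at P60. It was below background on 9 of 10 arrays, and the exception was P60 litter 1. No level of Nid1 can be given.

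**Figure D3:**
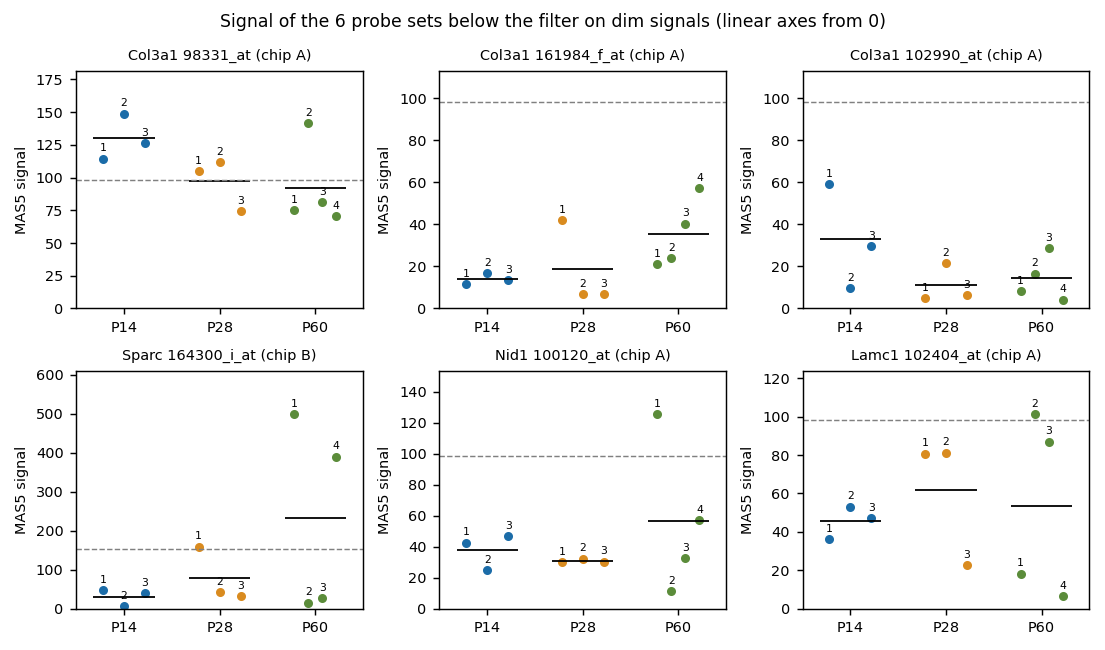
MAS5 signal (linear axis from 0) in every litter of the 6 probe sets that did not pass the filter, with litter numbers, age means as black lines and the background level as a dashed grey line. The first Col3a1 probe set has a P14 mean of 130, above background, and the Sparc probe set on chip B, with a P60 mean of 233, is high at that age in litters 1 and 4 alone.

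Fn1 encodes fibronectin, a matrix protein that cells bind through integrins, and Sparc a secreted protein that binds collagens and is made in the brain by vessel cells and glia. Fn1 (92852_at) had signals of 817, 957 and 961 at P14, 478, 622 and 538 at P28, and 383, 587, 650 and 346 at P60. The P14 litters were above all others, and within P60 the lowest were again litters 1 and 4. The log2 difference was -0.71 with a standard error of 0.25 from P14 to P28 and -0.88 with 0.23 from P14 to P60. In the restricted set the latter was -0.60 with 0.18.

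Sparc on chip A (97160_at) had 724, 852 and 1012 at P14, 603, 377 and 415 at P28, and 478, 339, 300 and 420 at P60. The P14 litters were above all others, and P28 and P60 overlapped. Its log2 difference was -0.86 with a standard error of 0.24 from P14 to P28 and -1.10 with 0.23 from P14 to P60. It was not called with all litters. It was called when P14 litter 1 was dropped (-1.21) and in the restricted set (-1.44), likewise on values known when the gene was chosen. The i-type probe set on chip B (164300_i_at) was below background on 7 of 10 arrays, with 6.71 to 47.6 at P14 and 31.8 to 159 at P28. At P60 it had a mean of 233, carried by litters 1 and 4, the arrays that stood apart on this chip, so its order of ages was opposite to that on chip A.

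The timing differed among the probe sets in these means. Of the 11 that were lower at P60 than at P14, 7 had reached at least 77.7% of the log2 difference by P28. For Npnt the share was 84.5% on chip A, for Col4a1 89.8%, for Fn1 79.9% and for Sparc 77.7%. It was over 100% for Npnt on chip B, for the first probe set of Col1a1 and for Col4a2 on chip A, whose P28 means were the lowest of the 3 ages. The share was lower for the second probe set of Col1a1 (53.6%), Col1a2 (42.1%), Lamc1 (15.5%) and Col4a2 on chip C (5.67%). These shares moved with the litters used. In the restricted set Npnt on chip B stood at 84.4%, Fn1 at 129%, Sparc at 67.5%, Lamc1 at 41.7% and Col4a2 on chip C at 11.1%. Counted by litters, every P14 litter lay above every P28 litter for 8 of the 12 probe sets (8.41% of all), and above every P60 litter for 9 of the 12 (6.42% of all). The reverse order was seen for 0 of the 12 between P14 and P28 (9.45% of all), 0 between P28 and P60 (3.9%) and 0 between P14 and P60 (6.61%). Nothing is read from these counts by litters, since the genes were chosen with these values known. The second probe set of Col1a1 also entered only through its P14 arrays.

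The rest of the matrix was followed in 7 lists fixed for this purpose with earlier results of these data known. They hold 153 genes, of which 137 had a probe set of their own and 81 were tested on 1 probe set per gene. Of these genes 43 were higher and 38 lower at P60 than at P14, with a median log2 difference of 0.03, beside 0.06 over all probe sets. With P14 litter 1 dropped 42 were lower and the median was -0.01, and in the restricted set 50 were lower and it was -0.12, beside 0.02 and 0.01 over all. A single gene passed, Ccn3, which encodes a matricellular protein that binds integrins, and it fell. That is 1.23% of the 81, beside 0.396% of all. Ccn3 had signals of 4794, 4025 and 3037 at P14, 1866, 1675 and 1544 at P28, and 755, 982, 1753 and 1089 at P60, with every P14 litter above all later ones. Its log2 difference was -1.79 with a standard error of 0.27 (limma, adjusted p = 0.0179), and over the alternatives the adjusted p ran from 0.000371 to 0.161. It missed the threshold when P14 litter 2 (0.0779) or P60 litter 1 (0.0694), 2 (0.0566) or 4 (0.0778) was dropped. Between P14 and P28, and between P28 and P60, limma called 0 of the 81, with 7 and 5 at an unadjusted p under 0.05. That is 8.64% and 6.17% of the 81, near the 7.87% and 5.43% of all probe sets.

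The lists differed in the direction of their means. Of 9 tested genes for laminins and other parts of the basement membrane, 5 were lower at P60, with a median of -0.17, and 0 passed. Col18a1, the core protein gene of a vascular basement membrane collagen, went from a mean of 276 to 111 (limma, adjusted p = 0.188; 0.0465 with P14 litter 1 dropped). It did not pass in the restricted set. The other Col18a1 probe sets did not pass the filter, and their means were all below background and higher at P60 than at P14. Fbln2, a fibulin gene, had a log2 difference of 0.57 (limma, adjusted p = 0.364). Of 12 other collagen genes 11 were higher, with a median of 0.25, led by Col7a1 at 0.74 (adjusted p = 0.5) and Col9a1 at 0.64 (0.477), and 0 passed. In the restricted set 5 of these 12 were higher and the median was -0.08, with Col7a1 at -0.13 and Col9a1 at 0.24. With median centring, which moved the median of all probe sets to -0.08, 9 were higher and the median was 0.08.

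Of 13 genes for collagen folding, processing and cross-linking, 7 were lower, with a median of -0.04, and 0 passed. Serpinh1, which encodes the collagen chaperone Hsp47, stood at -1.11 (limma, adjusted p = 0.259), with 164 in P14 litter 1 against 499 and 449 in the other P14 litters, and P4hb, a subunit gene of prolyl 4-hydroxylase, at -0.54 (0.405). For P4hb P60 litter 1 had 589 against 1363 to 1659 in the other P60 litters, and the difference was -0.21 with it dropped. Serpinh1 passed in the restricted set, which leaves that litter out, and not with all litters. Of 5 relatives and partners of nephronectin, 4 were lower, with a median of -0.32, and 0 passed. Grip1, which encodes a scaffold protein, stood at -1.22 (adjusted p = 0.175), and Egfl6, the gene of a close relative of nephronectin, went from a mean of 807 to 512 (0.442). For Grip1 the lowest P60 litters were 1 and 4 (67.1 and 108) and the highest P14 litter was litter 1 (664), and in the restricted set its difference was -0.44. For Egfl6 P60 litter 2, whose chip C array stood apart, had 40.2 against 508 to 799 in the other P60 litters. Its log2 difference was -0.24 with that litter dropped and -0.01 in the restricted set. Itga8, the gene of the alpha chain of its integrin receptor, was not among the largest changes, at -0.25 (0.722), with means of 791, 722 and 700 at the 3 ages.

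Of 15 matrix receptors, 8 were lower, with a median of -0.14, and 0 passed. With P14 litter 1 dropped 8 of the 15 were higher and the median was 0.19. In the restricted set 8 were higher and it was 0.07, whereas with median centring 10 were lower and it was -0.34. Itga1, the alpha chain of a collagen-binding integrin, stood at -0.83 (limma, adjusted p = 0.541), with all age means below background, and Itgb1, the beta chain shared by most matrix integrins, at -0.81 (0.134), with -0.14 on its other tested probe set. Of 15 matricellular and SPARC family genes 10 were lower, with a median of -0.19. Next to Ccn3, Eln, the elastin gene, stood at -1.09 on its tested probe set (limma, adjusted p = 0.0871). It passed in the restricted set and also with P14 litter 1 alone dropped. The other Eln probe set did not pass the filter and was highest at P60. Its means were 39.48 at P14 and 32.74 at P28, both below background, and 264.5 at P60. Of 12 proteases and inhibitors 9 were higher, with a median of 0.25, and 0 passed. In the restricted set 6 of the 12 were higher and the median was -0.02, and with median centring 8 were higher and it was 0.06. The matrix metalloproteinase gene Mmp16 stood at -1.03 (limma, adjusted p = 0.117), and Mmp17 went from a mean of 538 to 1142 (0.217). For Mmp17 the P60 litters 1 and 4 had 1521 and 1654 against 658 and 733 in the other P60 litters, and in the restricted set its log2 difference was 0.07.

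**Figure D4:**
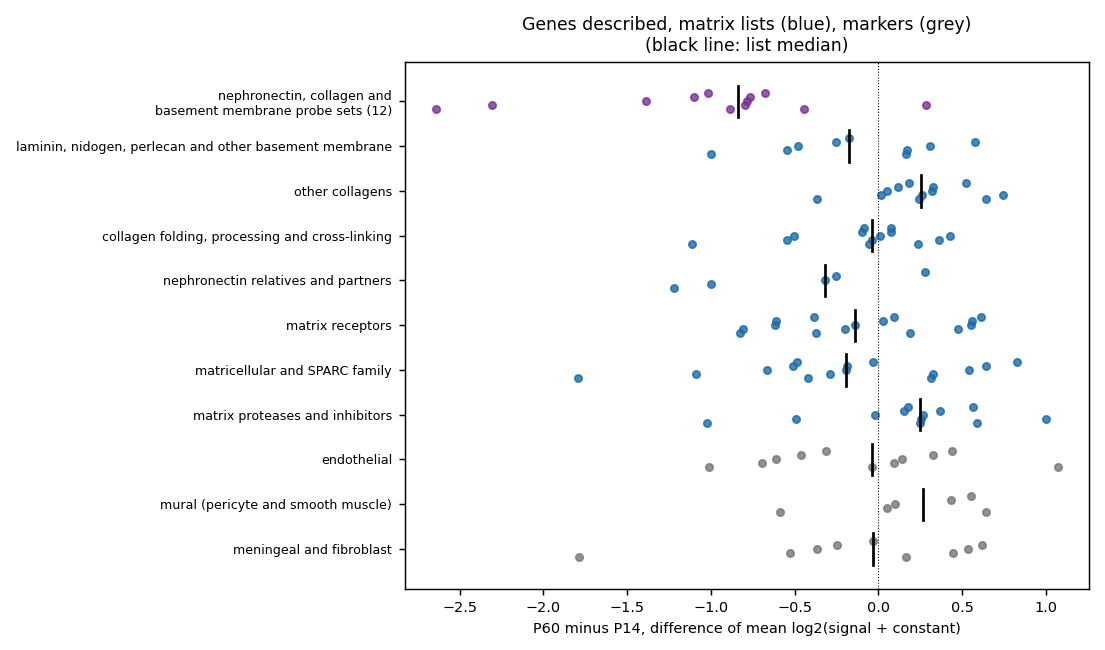
P60 minus P14 difference in mean log2 of signal plus a constant for the 12 tested probe sets of the genes described (purple), the tested genes of 7 other matrix lists (blue) and of 3 marker lists (grey), 1 point per probe set, with the median as a black line. The purple points have a median of -0.84 and the blue lists medians between -0.32 and 0.25, and the purple points were chosen with their values known.

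Markers of the cells that make these proteins were looked at beside them. Of 11 tested endothelial genes, 6 were lower at P60 than at P14, with a median of -0.04, and 0 passed. Summed over 15 genes, the endothelial signal ran from 6056 to 7022 at P14, from 5732 to 6805 at P28 and from 5460 to 6192 at P60, so the ages overlapped. Cldn5, a tight junction gene of brain endothelium, went from a mean of 838 to 722 and 435, and Flt1, a receptor gene for vascular endothelial growth factor, from 187 to 166 and 459. No marker of these lists was listed at 0, and 1 of the 15 endothelial genes, Tek, was below background at all ages.

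Of 6 tested mural genes 5 were higher at P60, with a median of 0.27, and 0 passed. With quantile normalization, median centring and the restricted set 3 of the 6 were higher. The summed signal of 11 mural genes ran from 2432 to 2933 at P14, from 2153 to 2456 at P28 and from 2439 to 4011 at P60, highest in P60 litters 4 and 1, and 4 of the 11 were below background at all ages. Rgs5, a pericyte gene with means of 768, 402 and 494, was the 1 tested mural gene that was lower at P60 with the values as deposited. Among the 5 that were higher, Vtn had means of 421, 442 and 649.

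Of 9 tested meningeal and fibroblast genes 5 were lower at P60, with a median of -0.03, and 1 passed, Igf2, a growth factor gene, which fell by 1.79 on the log2 scale (limma, adjusted p = 0.00937). The summed signal of the 13 genes was 11550 to 12940 at P14, 8260 to 8835 at P28 and 6800 to 8812 at P60, with every P14 litter above all later ones, as for Npnt and the bright probe set of Col1a1. Without Igf2, a step chosen after seeing the data, the sum of the other 12 was 5634 to 6556, 5799 to 6595 and 4807 to 7067, and the ages overlapped. Of the defining fibroblast genes, Dcn had means of 505, 391 and 324 and Lum 129, 139 and 162, and 1 of the 13, Dpt, was below background at all ages. The part of these cells in the differences of the collagen genes was not tested.

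The summed signals of markers of other tissue differed between ages too. The summed signal of 5 choroid plexus genes was 502 to 864 at P14, below the 1064 to 1925 at P28 and the 1197 to 1576 at P60 in every litter. Only 2 of these 5 genes were tested, and Kl was below background at all ages. Ttr was below it at P14 and P28, with means of 40.7 and 64.4. The sum of 3 blood genes, Hba-a1 among them, was 5272 to 23990 at P14, below every P28 litter (24820 to 34300), and overlapped with P60 (17480 to 51140). The choroid plexus sum was thus lowest at P14, where Npnt and most of the collagen and basement membrane probe sets were highest. The blood sum was not apart between P14 and P60, and 0 of the tested genes of either list passed. The sums of the hippocampal, microglial and oligodendrocyte progenitor lists overlapped between P14 and P60, at 1369 to 2183 and 2060 to 3810, 2106 to 3430 and 2646 to 3650, and 5239 to 11480 and 4549 to 7159. The part of these tissues in the differences was not tested.

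**Figure D5:**
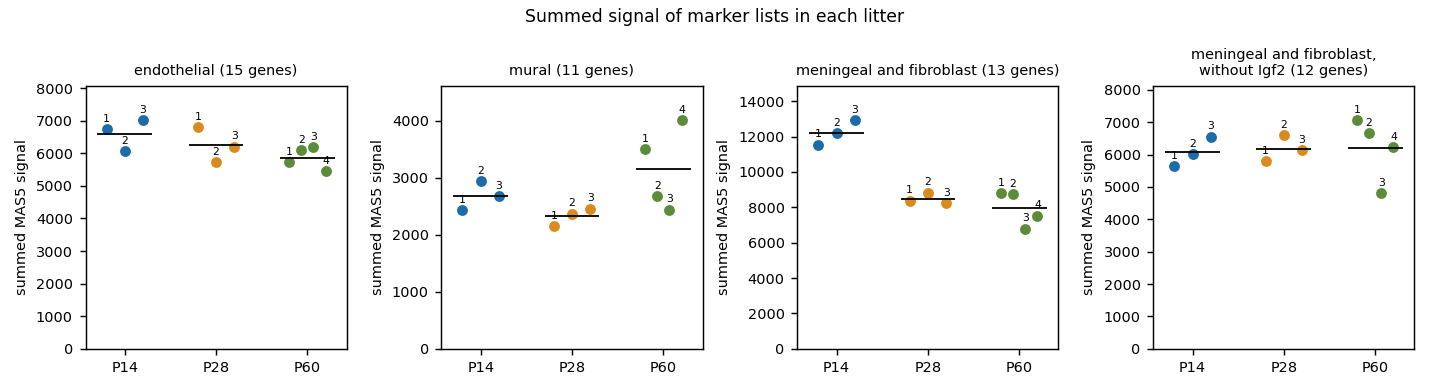
Summed MAS5 signal (linear axis from 0) of the endothelial, mural and meningeal and fibroblast marker lists in every litter, the last also without Igf2, with litter numbers and age means as black lines. The meningeal and fibroblast sum is apart at P14, at 11550 to 12940, and overlaps between ages once Igf2 is left out.

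The genes whose course over the 10 litters was most like that of 4 of the 10 were looked up among 5237 genes on chip A, by Pearson's r of the log2 values, as a description. For Npnt they were Ncam1 (r = 0.963), B4galt6 (0.959), Ywhaz (0.955), Igf2 (0.952) and Rcn1 (0.932). For Col4a1 they were Uqcrb (0.973), Tpbg (0.962), Arglu1 (0.956), Elavl4 (0.945) and D430019H16Rik (0.944). For Sparc they were Kdelr1 (0.962), Eya3 (0.945), Eef1b2 (0.930), Eln (0.918) and Atp5mpl (0.911). Col3a1 was too dim for a likeness to be read, and its nearest genes, led by Tfrc (0.881), are not described. All points share the litters, the arrays and the difference between P14 and the later ages, so high values are found easily among so many genes.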

How the data were processed

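RNA of 10 litters (3 at P14, 3 at P28, 4 at P60) was measured on 3 array types, and the 10 genes, the matrix lists and the marker lists were chosen with earlier results of these data known. The deposited values are signal intensities per probe set on a linear scale, for which the submitters' processing notes name MAS5 without a version. On each array the values have a 2% trimmed mean of 500, and the authors' values were not scaled further. Symbols came from the array annotation, updated through gene IDs. It gave 1 symbol for 29197 probe sets, several for 724 and none for 6978.

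Signals were taken as log2 of the signal plus the 20th percentile of the chip type (38.6, 57.8 and 44 on chips A, B and C). A probe set was tested if above the chip median (207, 252 and 183) on at least 3 arrays and no array control, which left 20724. Each chip type was fitted with limma 3.58.1 in R 4.3.3 (lmFit, eBayes with trend) on age with all litters. Benjamini-Hochberg adjustment ran over all chips, with a threshold of 0.05. Background is the 95th percentile of 15 Bacillus control probe sets per chip (98.4, 153 and 252). The fit was tested on simulated data. The array number limits the precision.

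Named were all 10 genes on every probe set, other matrix genes past the threshold, and the 2 of each list with the largest P14 to P60 difference. Alternatives were other constants, filters, scalings, variance models, array weights, the litter number as a block, fits without each litter, a restricted set, and fits of 2 ages only. Where the litter number was checked as a pairing, the deviations of same-numbered litters from their age means correlated between -0.06 and 0.13 over 9 pairs, 1 of them above 0.1, so they were not treated as pairs.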

Additional observations from a re-analysis of the deposited data

Results flagged for a closer look

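At P60, the group of 4 litters, 4 of 32 probe sets examined had 1 litter far from the other 3, and chance flags about 1 group in 20. For the dim Col1a1 probe set (94305_at) P60 litter 3 stood at 149, against 26.6 to 40.6 in the others. For the r-type Col1a2 probe set P60 litter 3 stood at 2160, against 2720 to 2740. For the brightest Col3a1 probe set P60 litter 2 stood at 142, against 70.7 to 81.2. For Itga1 P60 litter 3 stood at 225, against 41.4 to 57.4.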

How the results depend on the processing

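The signs of the P14 to P60 differences of all 12 tested probe sets were the same in the 20 or 21 alternatives run for each. The filter on all 10 arrays left out Npnt on chip B, Lamc1 and the dim probe sets of Col1a1 and Col1a2, so its counts are not out of 12. The number of probe sets of these genes called was 0 in the P28 to P60 comparison in all alternatives. For P28 against P14 it was 1 with the filter on all 10 arrays, 8 with array weights and 3 in the restricted set, and 0 to 1 with 1 litter left out, against 0. For P60 against P14 it was 3 with the filter on all 10 arrays, 3 with quantile normalization and 3 with median centring, against 2. It was 9 with array weights, 0 with the replicate block, 4 in the restricted set, 0 with only the 2 ages compared, and 0 to 4 with 1 litter left out. For the 81 other matrix genes, the P28 to P14 count was 10 with array weights and 3 in the restricted set, against 0, and 0 with any litter left out. The P60 to P14 count was 2 with the filter on all 10 arrays, 2 with median centring, 19 with array weights, 0 with the replicate block, 3 in the restricted set, 0 with only the 2 ages compared, and 0 to 4 with 1 litter left out, against 1. Of all probe sets, array weights called 5.61% for P28 against P14 and 17.5% for P60 against P14, the replicate block and the fits of 2 ages 0% for each, and the filter on all 10 arrays 0.0321% and 1.36% of the 12457 it kept. Quantile normalization called 0.42% and median centring 0.507% of all for P60 against P14. The labels do not say whether litters of the same number are paired across ages, and they were not treated as pairs. The block and the fits of 2 ages have fewer residual degrees of freedom. The cause of the changes in these counts was not tested for any of the alternatives. Signal near background limits Col3a1, Nid1, and the dim probe sets of Col1a1 and Col1a2.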
